A study of Rattus norvegicus with 6 samples.

Results

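DNA ligases and the partners that bring them to broken ends were followed in pancreatic islets of young and older rats. The family has 10 genes: the ligases Lig1, Lig3 and Lig4, the ligase partners Xrcc1, Xrcc4 and Nhej1, the end-binding and kinase subunits Xrcc5, Xrcc6 and Prkdc, and the break sensor Parp1. It was selected on Lig4, whose difference between the ages was among the largest on the arrays, so the values of Lig4 are a description and carry no test. A probe on the array was matched to a gene by its RefSeq transcript accession, which gave a probe for 8 of the 10 genes, of 13903 genes matched in all. Lig3 and Xrcc1 were not matched to a probe and are not analysed here. Each of the 8 genes was measured by 1 probe on 1 spot, so no gene had a second probe to set beside the first.

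Islets, the clusters of hormone-secreting cells in the pancreas, were isolated by collagenase digestion from male Wistar rats aged 3 months or 12 months. RNA from each age was hybridised to 3 single-colour arrays, and the supplement of the study names 3 rats of each age. No agent, transgene or allele was given in the labels, so age is the stated difference between the groups. The question was which transcripts differ with age.

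A break through both strands of DNA is rejoined mainly by non-homologous end joining. The Ku heterodimer (Xrcc5 with Xrcc6) binds the ends and recruits the catalytic subunit of DNA-dependent protein kinase (Prkdc), and DNA ligase IV (Lig4), held in a complex with Xrcc4 and assisted by the XLF protein (Nhej1), seals them. DNA ligase I (Lig1) joins Okazaki fragments at the replication fork and seals nicks in excision repair, while DNA ligase III (Lig3) works with Xrcc1 on single-strand breaks, which Parp1 detects. Cells that rarely divide rely on end joining because homologous recombination needs a sister chromatid.

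The windows around the annotated start sites of Lig4, Xrcc4 and Nhej1 are shown because these genes encode the ligase complex and the age differences of the partners, neither past the adjusted test, had opposite signs. Each window runs from 250 bases upstream to 50 bases downstream, from RefSeq assembly GRCr8, on the strand of the gene, and lies at chr16:86220192-86220491 (plus strand) for Lig4, chr2:22932764-22933063 (minus strand) for Xrcc4 and chr9:84070768-84071067 (minus strand) for Nhej1. Capitals mark matches on either strand to the GC box GGGCGG or the CCAAT box.
Lig4: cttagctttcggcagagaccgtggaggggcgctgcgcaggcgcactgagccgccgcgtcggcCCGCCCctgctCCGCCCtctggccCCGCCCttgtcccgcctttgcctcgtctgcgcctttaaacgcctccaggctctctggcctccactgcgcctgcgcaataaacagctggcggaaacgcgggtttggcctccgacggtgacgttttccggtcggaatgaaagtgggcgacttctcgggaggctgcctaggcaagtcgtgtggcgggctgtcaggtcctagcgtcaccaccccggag
Xrcc4: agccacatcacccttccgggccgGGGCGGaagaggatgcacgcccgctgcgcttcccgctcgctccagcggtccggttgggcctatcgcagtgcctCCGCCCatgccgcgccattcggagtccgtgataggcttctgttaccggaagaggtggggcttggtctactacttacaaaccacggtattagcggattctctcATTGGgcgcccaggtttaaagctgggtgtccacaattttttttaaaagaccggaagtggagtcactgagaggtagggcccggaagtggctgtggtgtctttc
Nhej1: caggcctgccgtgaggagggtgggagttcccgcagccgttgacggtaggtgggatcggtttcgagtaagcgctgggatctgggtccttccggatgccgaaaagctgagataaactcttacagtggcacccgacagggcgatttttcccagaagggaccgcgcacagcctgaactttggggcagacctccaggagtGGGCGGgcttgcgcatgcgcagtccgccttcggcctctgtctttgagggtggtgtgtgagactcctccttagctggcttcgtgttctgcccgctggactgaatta

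The Lig4 window held 3 GC boxes, whose first bases lay 188, 177 and 164 bases upstream of the start site. That of Xrcc4 held 2 GC boxes and 1 CCAAT box, and that of Nhej1 held 1 GC box. A GC box was found in 33.1% and a CCAAT box in 37.5% of 33469 rat promoter windows of this length. The TATA box TATAAA (14.2% of all windows) and the sequence TTTNNCGC (4.92%), searched on both strands, were in none of the 3 windows. Each match is a description of the letters. CpG dinucleotides numbered 32 in the Lig4 window, 22 in that of Xrcc4 and 20 in that of Nhej1, against a median of 7 over all windows.

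The 3 arrays of an age were read together in a scan of their own, and the scan cannot be told apart from age. Between 73.0% and 77.4% of probes were well above background on the 3-month arrays and between 59.5% and 64.2% on those of 12 months. Negative-control spots, which should bind no transcript, had a median signal of 29.5 to 31 scanner units at 3 months and 89.5 to 91 at 12 months. Probes entered the test when 3 or more of the 6 arrays gave a signal well above background. All 8 genes met this, Lig4 through its 12-month arrays alone, and the other 7 were well above background on all 6 arrays. Levels below are log2 signals after quantile normalization and are compared between arrays for 1 gene at a time. A positive difference is higher at 12 months, and the median difference of the 17941 tested probes was -0.17.

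Lig4 was at background in young islets and clearly detected in older ones. Its spot had a median signal of 32, 32.5 and 35 scanner units on the 3-month arrays and of 613, 620.5 and 439 on the 12-month arrays. On the young arrays 20, 25 and 12 of the 153 negative-control spots were as bright as the Lig4 spot or brighter, and on the older arrays none of them was. Above the negative-control median of its own array, the Lig4 signal was 2.5, 2.5 and 4 units at 3 months and 522, 529.5 and 349.5 units at 12 months. The 12-month spots therefore stood far above their own, higher background. These units are not normalized, and overall brightness differed between arrays. For Lig1 the processed signal was 808 units on 3-month replicate 1 and 4131 on 12-month replicate 1. Its normalized log2 levels on these arrays were 11.50 and 11.03.

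**Figure D1:**
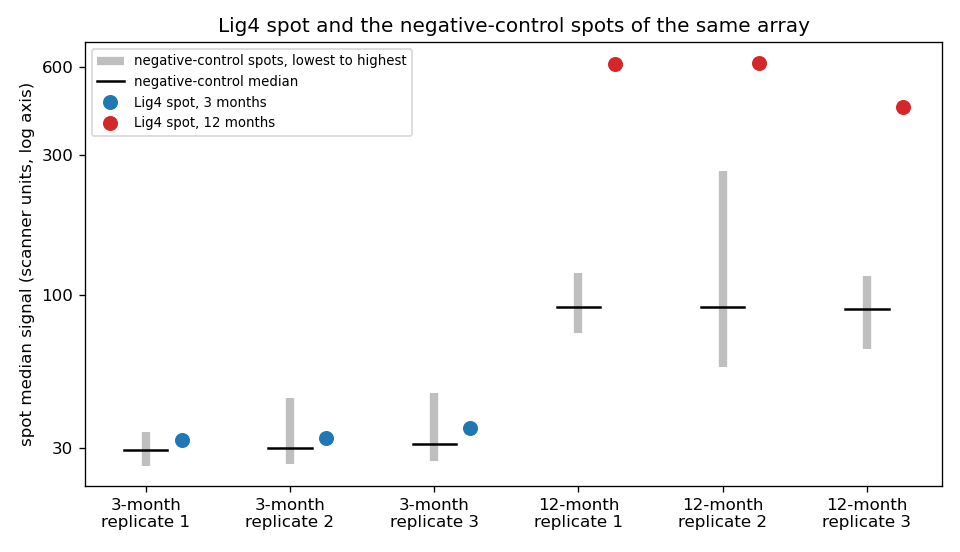
Median signal of the Lig4 spot on each array (points, scanner units, log axis) beside the range of the 153 negative-control spots of the same array (grey bars) and their median (black lines). The 3-month points lie within the control range, at 32 to 35 units, while the 12-month points lie above it, at 439 to 620.5 units.

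On the normalized log2 scale the Lig4 level was 2.13, 2.09 and 2.11 at 3 months and 7.99, 8.42 and 8.39 at 12 months. The groups did not overlap, and the 3 older arrays lay close together. Because the family was selected on this difference of Lig4, that pattern adds no support. The 3-month values were not well above background on any array, so the size of the difference depends on the floor given to them. Lig4 was 37.9-fold higher at 12 months with each young array counted at the lowest log2 signal well above background on it. Probes not well above background can lie above that floor, so this is not a strict lower limit. The same rule gave 32.5-fold after a shift to a common 75th percentile. It gave 5.30-fold after normexp background correction with an offset of 50, which raises dim spots. In the table of log2 values deposited by the authors, Lig4 was at the lowest value of each 3-month column, 2.82, 2.79 and 2.78, which it shared with other probes.

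Signal that appeared only at 12 months was uncommon on these arrays. Of 24684 probes, 28 were well above background on none of the 3-month arrays and on all 12-month arrays, as Lig4 was, whereas 1840 showed the reverse. The 12-month arrays had brighter negative controls and fewer probes well above background, and the part of this in these counts was not tested. Among 11148 other genes that were kept and had a value on every array, the 5 whose levels followed Lig4 most closely over the 6 arrays were Marchf7, Dll1, Smc3, Pskh1 and Rbm27. Their Pearson correlations with Lig4 were 0.999, 0.998, 0.998, 0.997 and 0.997, and 29 genes had a correlation over 0.99. With all 3 arrays of each age close together, this measure mainly picks genes that differ between the ages and are tight within them. Of these, Dll1, a Notch ligand, and Rbm27 were also detected only at 12 months, and Smc3, a cohesin subunit, was higher by 1.21. The genes next to Lig4 on its chromosome in the RefSeq order, Abhd13 and an uncharacterised locus, had no matched probe.

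**Figure D2:**
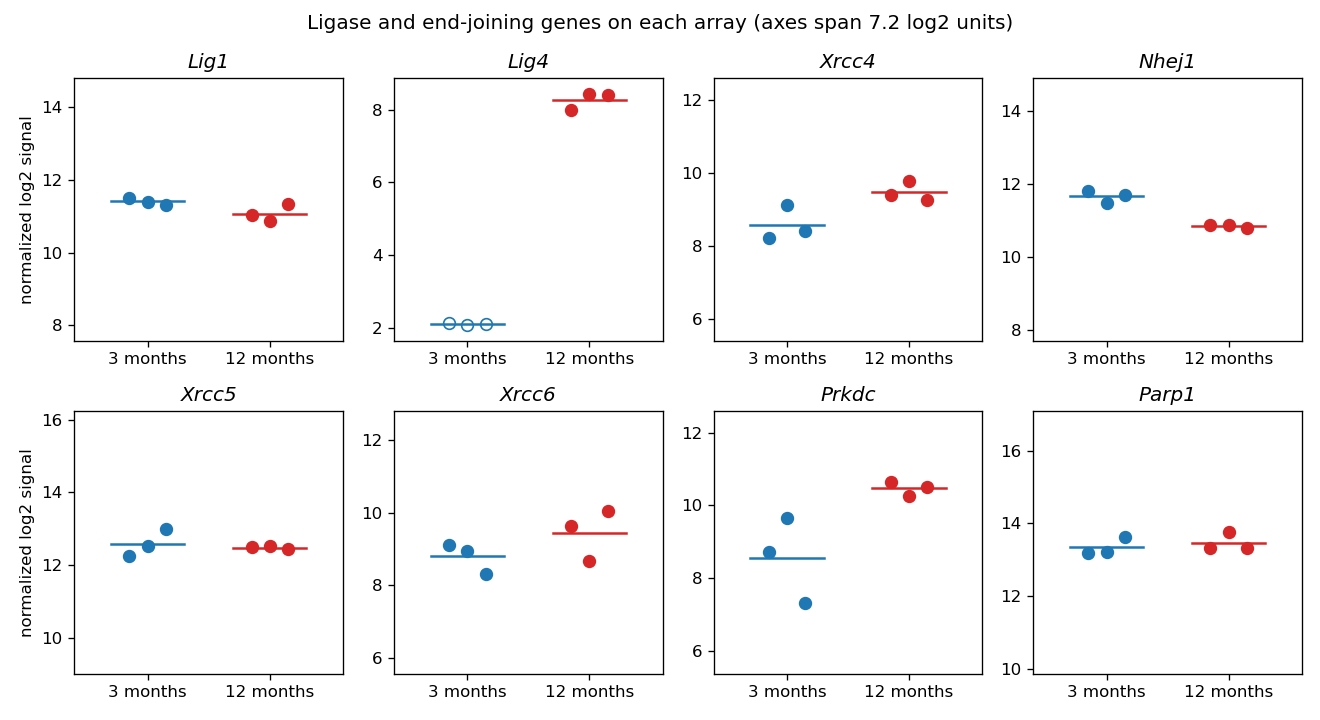
Normalized log2 signal of the 8 measured genes on each array (points) with the mean of each age (lines). Every vertical axis spans the same number of log2 units, and open points were not well above background. Lig4, on which the family was selected, moved from about 2.1 to between 7.99 and 8.42. The ages did not overlap for Xrcc4 and Prkdc (higher) and Nhej1 (lower). Among all tested probes this held for 16.5% in the higher and 22.6% in the lower direction.

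Lig1, the replicative ligase, differed little between the ages. Its level was 11.50, 11.39 and 11.32 at 3 months and 11.03, 10.86 and 11.32 at 12 months. Only the 12-month array 3 reached the range of the young arrays. The difference was -0.33 ± 0.23 (SE, n = 3 per age; 95% interval -0.89 to 0.22; adjusted p = 0.349, limma with Benjamini-Hochberg adjustment over all tested probes).

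The mean levels of the ligase IV partners lay in opposite directions, and neither partner passed the adjusted test. Xrcc4, the scaffold that stabilises the ligase, was at 8.21, 9.12 and 8.40 in young islets and at 9.40, 9.78 and 9.26 in older islets. Every older array was above every young one, although the 3-month array 2 came close to the lowest older array. The Xrcc4 difference was 0.90 ± 0.32 (SE, n = 3 per age; 95% interval 0.15 to 1.66), or 1.87-fold, with an unadjusted limma p of 0.0259 and an adjusted p of 0.110. Nhej1, which aligns the ends with Xrcc4, was at 11.80, 11.49 and 11.69 in young islets and at 10.86, 10.86 and 10.79 in older ones. Here every older array was below every young one. Its difference was -0.82 ± 0.22 (SE, n = 3 per age; 95% interval -1.34 to -0.30), 1.77-fold lower, with an unadjusted limma p of 0.00766 and an adjusted p of 0.0648.

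The call for Nhej1 depended on the processing. It passed an adjusted p of 0.05 under 5 of 16 alternatives, with an adjusted p of 0.0260 after normexp correction, 0.0456 among probes above background on all 6 arrays, 0.0427 with no filter, 0.0338 with an intensity trend and robust variances, and 0.0451 by the methods' t-test run without pairs. Its difference stayed between -0.91 and -0.73 under all 16. Xrcc4 had the same direction under all 16, with differences of 0.72 to 1.18, and passed under none.

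Within each array, the gap between Xrcc4 and Nhej1 is not altered by shifting the whole array. The log2 gap of Xrcc4 minus Nhej1 was -3.59, -2.37 and -3.29 at 3 months and -1.46, -1.08 and -1.54 at 12 months. This pair was set side by side after the opposite signs had been seen, so its shift, 1.72 with normalization and 1.81 without, restates the differences of the genes and carries no test.

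Prkdc had the largest difference of the 7 genes other than Lig4 and, at 3 months, the largest spread. The kinase subunit was at 8.71, 9.65 and 7.32 in young islets and at 10.64, 10.26 and 10.51 in older islets. The older arrays were all higher and close together, while the young arrays spread from 7.32 to 9.65. The young SD of 1.17 was above that of 95.9% of tested probes at this age, whose median was 0.40. The Prkdc difference was 1.91 ± 0.56 (SE, n = 3 per age; 95% interval 0.57 to 3.25), or 3.76-fold, with an unadjusted limma p of 0.0122 and an adjusted p of 0.0781. Without 3-month replicate 3, its lowest array, it was 1.29, and without 3-month replicate 2, its highest young array, it was 2.45 with an adjusted p of 0.0449. The table deposited by the authors did not list the Prkdc probe.

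The Ku subunits did not differ beyond their spread. Xrcc5 was at 12.24, 12.53 and 13.01 in young islets and at 12.49, 12.53 and 12.43 in older ones, with the older arrays inside the young range. Its difference was -0.11 ± 0.27 (SE, n = 3 per age; 95% interval -0.75 to 0.53; limma adjusted p = 0.797). Xrcc6 was at 9.12, 8.96 and 8.31 in young islets and at 9.62, 8.66 and 10.05 in older ones. The 12-month array 2 lay within the young range. The Xrcc6 difference was 0.65 ± 0.42 (SE, n = 3 per age; 95% interval -0.35 to 1.65; limma adjusted p = 0.315). Its interval holds a 2-fold rise. The value rested on single arrays: it was 0.35 without 12-month replicate 3, 0.41 without 3-month replicate 3 and 1.04 without 12-month replicate 2, and with the replicate block it was 0.10.

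Parp1, which marks broken DNA with poly(ADP-ribose), was at 13.19, 13.22 and 13.62 in young islets and at 13.33, 13.76 and 13.31 in older islets. The ages overlapped. The difference was 0.13 ± 0.26 (SE, n = 3 per age; 95% interval -0.49 to 0.74; limma adjusted p = 0.752), and it was -0.20 under the 75th percentile shift. That shift moved the median difference of all tested probes to -0.40. Under it, Prkdc stood at 1.88, Xrcc4 at 0.90, Xrcc6 at 0.64, Lig1 at -0.43 and Nhej1 at -0.91, so that these 5 kept their sign. In the 4 arrays whose names share an ending, 2 of each age, Prkdc differed by 1.97, Xrcc4 by 0.83 and Nhej1 by -0.73, and no probe passed an adjusted p of 0.05 in limma.

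**Figure D3:**
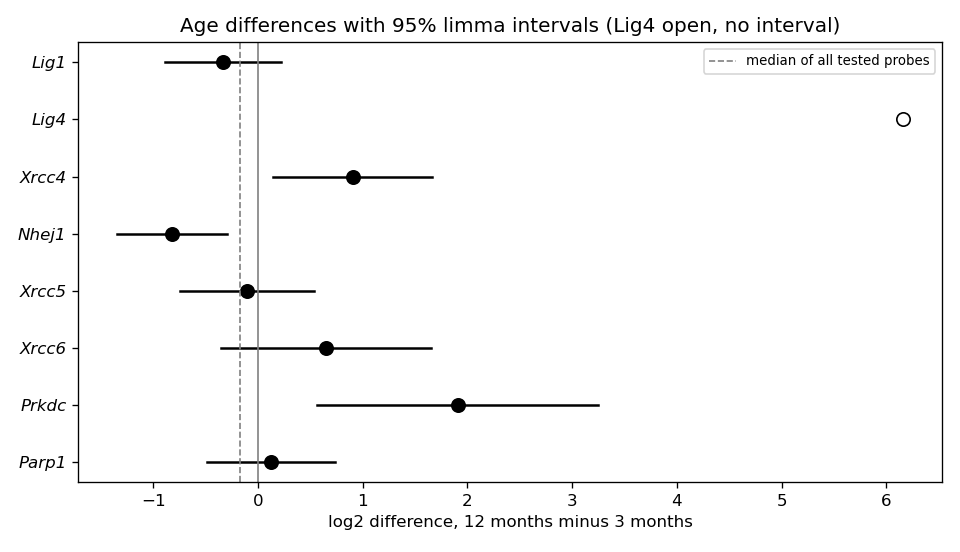
Log2 difference between the ages (12 months minus 3 months) for each measured gene, with 95% limma intervals as bars. The intervals of Xrcc4, Prkdc and Nhej1 do not cover 0, whereas no adjusted p was under 0.05. Lig4 (open) is drawn at its measured difference, 6.16 log2 units, with no interval. Its 3-month signal was at background, so the size depends on the floor and processing. The point drawn uses no such floor. With each young array counted at its lowest log2 signal well above background, Lig4 was 37.9-fold higher in the main setting. The same rule gave 32.5-fold after the 75th percentile shift and 5.30-fold with normexp.

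None of the 7 genes other than Lig4 passed an adjusted p of 0.05 in the limma test, 3 had an unadjusted p under 0.05 (Xrcc4, Nhej1 and Prkdc), and the methods' t-test gave 1 at its adjusted p (Nhej1). The study names a paired test without giving the pairs, so this test was run unpaired and is not the test of the study. Among all tested probes 5.31% were called higher and 3.03% lower at the adjusted threshold. At the cut-offs of the study, a fold over 2 with an unadjusted p under 0.05, here taken from limma, 1 of the 7 was called higher (Prkdc) and none lower, against 10.1% and 11.9% of all tested probes. Prkdc was not called so with the replicate block or in the 4 arrays whose names share an ending. The ages did not overlap for 2 of the 7 that were higher (Xrcc4 and Prkdc) and 1 that was lower (Nhej1), against 16.5% and 22.6% of all tested probes. Counts of 0 to 2 among 7 genes are near what these shares give. The median difference of the 7 was 0.13, beside -0.17 for all tested probes and -0.13 for all tested genes. An exact permutation test of a single gene could not go below a two-sided p of 0.1, which was the value for Xrcc4, Nhej1 and Prkdc, and it gave 0.2 to 0.7 for Lig1, Xrcc5, Xrcc6 and Parp1.

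**Figure D4:**
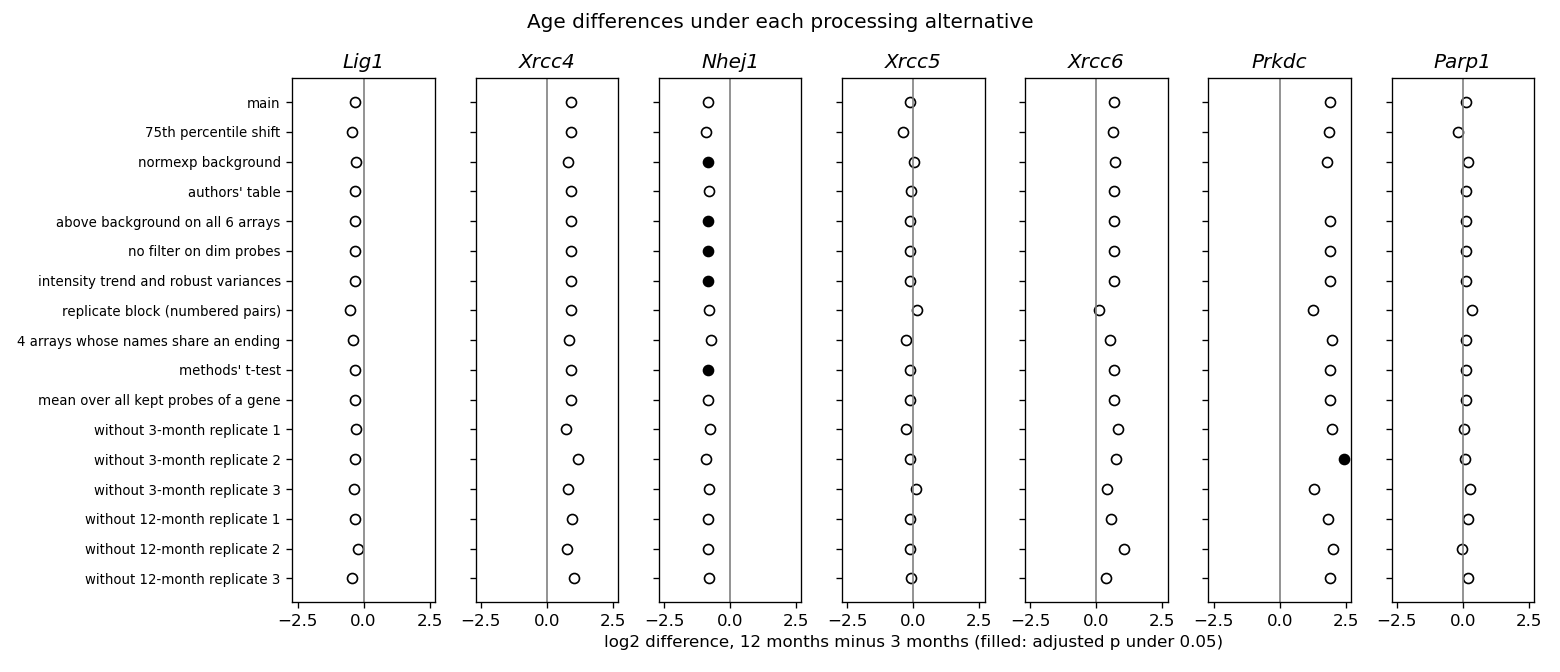
Log2 difference between the ages for the 7 genes other than Lig4 under the settings used throughout ("main") and each alternative. Filled points had an adjusted p under 0.05, which happened 5 times for Nhej1 and once for Prkdc. Xrcc5 and Parp1 lie on both sides of 0. The table of the authors does not list Prkdc, so that point is missing.

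Genes that work beside this family were followed in 6 lists that together hold 111 genes, of which 75 were tested. Of these, 3 rose and 3 fell at an adjusted limma p of 0.05, or 4.0% in each direction, against 5.31% and 3.03% of all tested probes, and the median difference was -0.23. These shares are near those of all probes, so the calls below describe single genes. Lists share some genes, and each list is described by its own count and median.

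The other factors of classical end joining gave no call among 7 tested genes, with a median of -0.19. Tdp2, which clears topoisomerase remnants from DNA ends, was at 10.71, 11.33 and 10.61 in young islets and at 11.90, 12.08 and 11.65 in older ones, without overlap, and its difference was 0.99 ± 0.29 (SE, n = 3 per age; limma adjusted p = 0.0736). Polm, a gap-filling polymerase of end joining, went the other way, from 10.49, 10.49 and 10.79 to 9.67, 9.76 and 9.67, a difference of -0.89 ± 0.22 (SE, n = 3 per age; limma adjusted p = 0.0557). These were the largest differences of the list, and non-overlap was seen in 16.5% of all tested probes in the higher and 22.6% in the lower direction. Alternative end joining, the back-up route through short homologies, gave no call among 8 tested genes, with a median of -0.16 that ran from -0.24 to 0.006 over the alternatives. There Fen1, the flap endonuclease, differed by -0.71 (limma adjusted p = 0.0916), and Rad50, a subunit of the break-binding MRN complex, by 0.74 (limma adjusted p = 0.187).

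Base excision and single-strand break repair gave 3 of the 6 calls, with 1 rise and 2 falls among 19 tested genes and a median of -0.36. The glycosylases Mpg and Nthl1, which remove alkylated and oxidised bases, fell by 1.38 (limma adjusted p = 0.0212) and by 1.17 (limma adjusted p = 0.0387) on the log2 scale. Mpg went from 10.78, 10.74 and 10.76 to 9.44, 9.58 and 9.14, and Nthl1 from 10.22, 10.05 and 9.68 to 8.96, 8.64 and 8.83. Neil1, another glycosylase for oxidised bases, rose by 1.61 (limma adjusted p = 0.0472), from 5.30, 6.49 and 5.31 to 7.33, 7.16 and 7.42. All 3 had non-overlapping ages, seen in 16.5% of all tested probes in the higher and 22.6% in the lower direction. They were named for passing the test on these same arrays, so this adds no support.

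Break sensing gave 1 rise and 1 fall among 15 tested genes, with a median of 0.02 that lay between -0.15 (75th percentile shift) and 0.35 (no filter). Uimc1, the ubiquitin-binding RAP80 subunit that brings repair complexes to breaks, rose by 2.13 (limma adjusted p = 0.0470), and its young arrays were spread from 8.37 to 10.37 while its older arrays lay between 11.49 and 11.67. Mdc1, the scaffold that binds phosphorylated histone H2AX, fell by 1.36 on the log2 scale (limma adjusted p = 0.0383). Homologous recombination gave 1 rise among 14 tested genes and replication forks 1 rise among 24, and both were Rpa3, a subunit of the single-strand binding complex, which rose by 1.22 (limma adjusted p = 0.0465). Their medians were -0.23 and -0.32. Xrcc2, a recombination factor, differed by -1.02 (limma adjusted p = 0.126) with overlapping ages, and Pola2, a primase-polymerase subunit, by -1.27 (limma adjusted p = 0.0770). No pathway gene was called without 3-month replicate 1, 3-month replicate 3, 12-month replicate 1 or 12-month replicate 3, whereas 1 was called without 12-month replicate 2 and 5 without 3-month replicate 2.

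**Figure D5:**
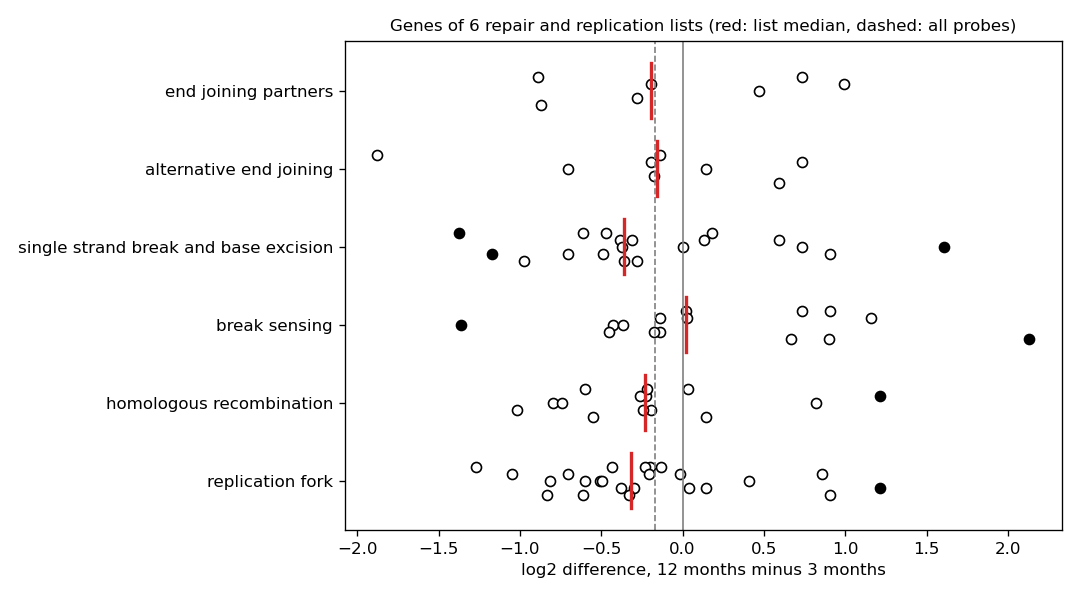
Log2 difference between the ages for the tested genes of each repair and replication list (points; filled where the adjusted p was under 0.05), with the list median in red and the median of all tested probes dashed. List medians lie between -0.36 and 0.02, and called genes lie on both sides of 0.

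The islet label was checked with hormone genes. Ins1, Ins2, Gcg, Sst and Ppy were well above background on all arrays, and so were exocrine genes such as Amy2a3 and Pnlip, so the preparations held acinar transcripts at both ages. In these bulk samples, fewer cells of a type and less RNA per cell cannot be told apart. The mean log2 level of the 9 tested acinar genes was 14.7 to 16.1 at 3 months and 14.5 to 16.4 at 12 months, and none passed the test. Mesenchymal genes were higher in the mean in 5 of 5, with a list level of 10.1 to 11.1 at 3 months and 11.6 to 12.8 at 12 months and 1 call (Pdgfrb). Non-beta endocrine genes were higher in 7 of 7, at 13.9 to 14.0 and 14.5 to 14.6, with 1 call (Hhex). Of the 6 beta cell genes, 4 were higher in the mean and 2 lower (Ins2 and Nkx6-1). Their list level was 14.8 to 15.1 and 15.7 to 16.3, with 1 call (Slc30a8, higher by 3.71), while Ins1 differed by 0.10. Schwann cell genes were lower in 4 of 4, with 1 call (Sox10, which had a value on only 2 of the 3-month arrays). Of the 4 endothelial genes, 3 were lower in the mean and 1 was higher (Pecam1, by 1.23), with a list level of 9.94 to 10.3 and 9.05 to 9.65. The endothelial list gave no call. Nor did those for duct (4 tested), immune (8 tested, with Cd4 not above background on any array) and cycling cells (7 tested). The part of these shifts in the differences of Lig4, Prkdc, Xrcc4 and Nhej1 was not tested.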

How the data were processed

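Spot intensity in the deposited scanner files came, per the file headers, from Agilent Feature Extraction 11.0.1.1, beside quality marks and other columns such as probe names. A further deposited table gives quantile-normalized log2 values made by the authors, with a filter not given in the sources used here. The processed signal of Feature Extraction was put on a log2 scale and averaged over the spots of each probe after removal of outlier spots. It was then quantile normalized over 24684 probes. For Lig4 on the 3-month arrays the processed signal was 1.74, 1.97 and 2.32 units, where the background-subtracted signal was -0.33, 0.11 and -0.64. Probes well above background on at least 3 of 6 arrays were kept (17944), and 17941 were tested for age in limma 3.58.1 under R 4.3.3 (two-sided eBayes test after lmFit, without a block), and p-values were adjusted by Benjamini-Hochberg over all of them. No spot of the 8 genes was saturated. The number of arrays limits the precision. The p-values set the age difference against the spread between arrays of the same age, drawn towards that of all probes. They cannot separate age from scan. Accessions were matched without versions to a RefSeq table of GRCr8, while the array design names another build. For a gene with several probes, that with the highest mean was used.

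The members, lists and alternatives were chosen with earlier results of these data known. Named genes were all members and, from each list, up to 5 genes with an adjusted p under 0.05 that were well above background on the 3 arrays of the higher age. Where a list had fewer than 2 of these, its 2 genes with the largest differences among those above background on all 6 arrays were added, as were the 5 genes most like Lig4. The limma fit was checked with simulated data in which known probes had been changed. Alternatives varied the normalization, background correction, filter, variance model, test, probe choice and arrays. Certain listed genes are counted but not named. For the fold of Lig4, the 12-month mean was set against a mean over the 3-month arrays. Each 3-month array counted at whichever was higher, the signal of the probe or the dimmest log2 signal called well above background on it.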

Additional observations from a re-analysis of the deposited data

How the results depend on the processing

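The difference of each measured gene was recomputed under up to 16 alternatives. Lig4 was higher at 12 months under each that kept its probe, with measured differences of 2.50 to 6.66, and Lig1, Xrcc4, Nhej1, Xrcc6 and Prkdc kept their direction. The difference of Xrcc5 turned to 0.010 with normexp and 0.12 with the replicate block and ran from -0.28 to 0.10 (without 3-month replicate 3) as 1 array was left out, and that of Parp1 turned to -0.20 under the 75th percentile shift and ran from -0.020 (without 12-month replicate 2) to 0.26. Of the 7 genes other than Lig4, the number called lower at an adjusted p of 0.05 went from 0 to 1 (Nhej1) with normexp, with the filter on all 6 arrays, with no filter, with an intensity trend and robust variances, and with the t-test. The number called higher was 0 to 1 when 1 array was left out. The number past the threshold of the study, 1, became 0 in the table of the authors (which lacks Prkdc), with the replicate block and in the 4 arrays whose names share an ending, and was 1 to 2 when 1 array was left out. The 6 called pathway genes became 3 under the shift, 11 under normexp, 2 by the t-test, 0 with the replicate block, 0 in the 4 arrays, and 0 to 5 when 1 array was left out. The cause was not tested, except that the block and the 4-array fit use 4 of the 6 arrays, and there the calls among all probes numbered 0. Among all probes, 953 were called higher and 543 lower, the counts behind the background shares. These were 926 lower under the shift, 915 lower with no filter, and 251 and 186 by the t-test. Leaving out 1 array gave 177 higher and 31 lower without 12-month replicate 1, 248 and 40 without 12-month replicate 3, 270 and 52 without 3-month replicate 1, 376 and 83 without 3-month replicate 3, 787 and 261 without 3-month replicate 2, and 1126 and 1043 without 12-month replicate 2.

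The replicate block used the arrays numbered 1 and 2 of each age, which share only a number. The deviations of same-numbered arrays correlated across probes at -0.01 and -0.31, and the Prkdc difference with the block was 1.27. Because the Lig4 signal was dim at 3 months, the size of its difference depends on the floor used there. The list medians of alternative end joining and break sensing took both signs over the settings. Those of the other factors of classical end joining, base excision and single-strand break repair, homologous recombination and replication forks stayed below 0 under every alternative.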
